A study of Mus musculus with 24 samples.

Results

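A group of 10 genes of NF-kB signaling and inflammation was followed through every library of the series: the feedback inhibitors Nfkbia, Nfkbiz and Tnfaip3, the cytokines Tnf and Il1b, the chemokines Cxcl2, Ccl3 and Ccl4, and the enzyme and sensor genes Ptgs2 and Nlrp3. They were chosen by symbol, as 10 of the 55335 genes in the blood tables and 10 of the 56883 gene names in the cell surface tables. The series holds 24 libraries. Of these, 9 are bulk RNA-seq of mouse peripheral blood mononuclear cells (PBMC), labelled wild type in genotype and ct, WT or Y in treatment, with 3 libraries of each treatment; the labels do not say what ct, WT and Y stand for, so no treatment is described here. The other 15 come from AMOUR, an assay in which fixed, unpermeabilized cells on ConA beads are hybridized with a T7 promoter probe that ends in random bases, so that RNA on the outer membrane is amplified in place by T7 RNA polymerase and sequenced. The study states that AMOUR, like the other methods it names, cannot wholly exclude RNA from inside the cell. Surface levels below are read with that limit. AMOUR was run on wild-type C57BL/6 mice, with 3 libraries each of B cells, T cells and NK cells from the spleen and of hematopoietic stem and progenitor cells (HSPC) and monocytes from the bone marrow, isolated with magnetic kits (a CD8 kit for the T cells and lineage depletion for HSPC). The study calls its surface libraries biological replicates, but the labels do not say whether the replicates of either data set came from separate animals, so the p-values measure the spread between these libraries, which may be in part technical.

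NF-kB is a family of dimeric transcription factors that inhibitor proteins hold in the cytoplasm until a receptor for bacterial products, TNF or IL-1 activates the IkB kinase. The released dimers bind kB sites in DNA and switch on inflammatory genes together with the genes of their own inhibitors, so that the response limits itself. In blood, monocytes and neutrophils are the main source of Tnf, Il1b, Cxcl2 and Ptgs2, while NK cells and T cells also make Ccl3, Ccl4 and Tnf. Several of these mRNAs are short-lived and are also induced when cells are handled.

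The promoters of the members are shown because NF-kB acts through kB sites near the genes it controls. Windows of 300 bases, 250 before and 50 from the annotated start, were available for 8 of the 10 members, as 10 windows (RefSeq, GRCm38.p6). The kB consensus, searched on both strands as a 10-base motif, was found in windows of 4 members, Nfkbia, Tnfaip3, Cxcl2 and Nlrp3, and in 8.46% of all 32851 promoter windows. The windows below read 5′ to 3′ on the strand of the gene, with kB matches in capitals. For Nfkbia (chr12:55492598-55492897, minus strand) the match spans positions -29 to -20 from the start and reads on the minus strand of the window. For Tnfaip3 (chr10:19015361-19015660, minus strand) the matches span -125 to -116, on both strands, and -12 to -3. For Cxcl2 (chr5:90903649-90903948, plus strand) overlapping matches, a match on each strand, span -97 to -87.
Nfkbia: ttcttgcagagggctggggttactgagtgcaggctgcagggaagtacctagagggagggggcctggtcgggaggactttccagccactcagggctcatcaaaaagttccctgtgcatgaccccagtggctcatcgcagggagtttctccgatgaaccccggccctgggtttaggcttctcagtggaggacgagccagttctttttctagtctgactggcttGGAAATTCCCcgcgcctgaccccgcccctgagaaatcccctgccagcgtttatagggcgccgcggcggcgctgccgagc
Tnfaip3: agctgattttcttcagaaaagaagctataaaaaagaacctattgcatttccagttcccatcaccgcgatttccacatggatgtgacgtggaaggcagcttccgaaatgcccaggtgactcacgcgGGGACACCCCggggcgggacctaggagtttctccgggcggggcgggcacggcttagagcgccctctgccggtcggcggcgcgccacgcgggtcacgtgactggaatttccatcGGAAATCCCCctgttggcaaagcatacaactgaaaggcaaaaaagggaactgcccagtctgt
Cxcl2: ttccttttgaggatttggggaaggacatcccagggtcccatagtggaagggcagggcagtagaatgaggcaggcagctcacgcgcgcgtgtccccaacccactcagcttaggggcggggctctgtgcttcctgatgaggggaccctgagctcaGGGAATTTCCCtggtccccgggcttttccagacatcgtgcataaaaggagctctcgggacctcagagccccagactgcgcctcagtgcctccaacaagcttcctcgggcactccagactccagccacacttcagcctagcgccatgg
The Nlrp3 match spans -186 to -177 in 1 of its 2 windows. The windows of Tnf, Il1b, Ccl3 and Ptgs2 and the other window of Tnfaip3 held no kB match, which says only that these letters are not in these windows. TATAAA begins at -29 in Tnf, -31 in Il1b and -225 in Tnfaip3, and lies on the opposite strand at 20 to 25 in Nfkbia (13.6% of all windows hold it on either strand), and a TGANTCA element begins at -136 in Tnfaip3 (7.81% of all windows). These matches are a description of sequence and were not tested as binding sites.

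The blood libraries held 4686426 to 9055797 assigned reads, and a ribosomal RNA gene took 50.5% to 57.0% of them. Of the 11635 genes that passed the filter on low counts, 9 were members, and Ptgs2 failed it. Blood cell markers differed between treatments. The sum of 10 monocyte markers was 332 to 353 CPM (counts scaled to library size) in WT, against 290 to 334 in ct and 290 to 312 in Y. For 10 neutrophil markers it was 288 to 314 in Y, against 135 to 151 in ct and 134 to 146 in WT. The sum of 8 NK cell markers was 66.3 to 68.4 in WT, against 52.9 to 54.8 in ct and 52.8 to 55.0 in Y, and 10 immediate early genes summed to 620 to 656 in WT, against 442 to 475 in ct and 414 to 462 in Y. Erythroid and platelet markers were highest in ct, with sums of 6869 to 8240 and 421 to 455 CPM against 4272 to 5012 and 270 to 338 in the other libraries. Their part in the results on the members was not tested, and in bulk samples fewer cells of a type and less RNA per cell cannot be told apart.

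Nfkbia and Tnfaip3, a pair of inhibitor genes, were the most abundant members in blood per length, with the authors' TPM at means of 24.9 and 14.9 in ct, and both were higher in WT than in ct and lower in Y than in WT. Nfkbia encodes IkB alpha, the inhibitor that retains NF-kB in the cytoplasm (chr12:55489410-55492647, GRCm38, minus strand). It was at 132, 134 and 129.8 CPM in WT, against 96.6, 101 and 97.9 in ct and 84.0, 80.6 and 74.0 in Y. No group overlapped another, with WT highest and Y lowest. Nfkbia was 1.34-fold higher in WT than in ct (log2 fold change 0.42, SE 0.08, adjusted p = 0.00806, edgeR) and 0.601 of WT in Y (log2 fold change -0.73, SE 0.08, adjusted p = 0.000142). Tnfaip3 encodes A20, the ubiquitin-editing enzyme that ends NF-kB signaling (chr10:19000910-19015657, minus strand). Its level was 222, 225 and 227 CPM in WT, against 157, 144 and 159 in ct and 144, 143 and 144 in Y. All WT libraries lay above all the others, and the Y libraries lay at the lower end of ct. Tnfaip3 differed by 0.55 on the log2 scale between WT and ct (SE 0.08, adjusted p = 0.00121) and by -0.64 between Y and WT (SE 0.08, adjusted p = 0.000415).

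Nfkbiz encodes IkB zeta, a nuclear IkB that acts on selected NF-kB targets such as Il6 (chr16:55811375-55838899, minus strand). It was at 44.2, 45.7 and 50.8 CPM in WT, against 39.7, 37.9 and 33.1 in ct and 33.2, 32.5 and 30.1 in Y. The WT libraries lay above the rest, while Y and ct met at 33 CPM. Nfkbiz did not pass the test between WT and ct (log2 fold change 0.34, SE 0.09, adjusted p = 0.0659). It fell in Y against WT by 0.56 on the log2 scale (SE 0.09, adjusted p = 0.00517), a call that was lost without Y library 3 (log2 fold change -0.51, adjusted p = 0.0655).

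**Figure D1:**
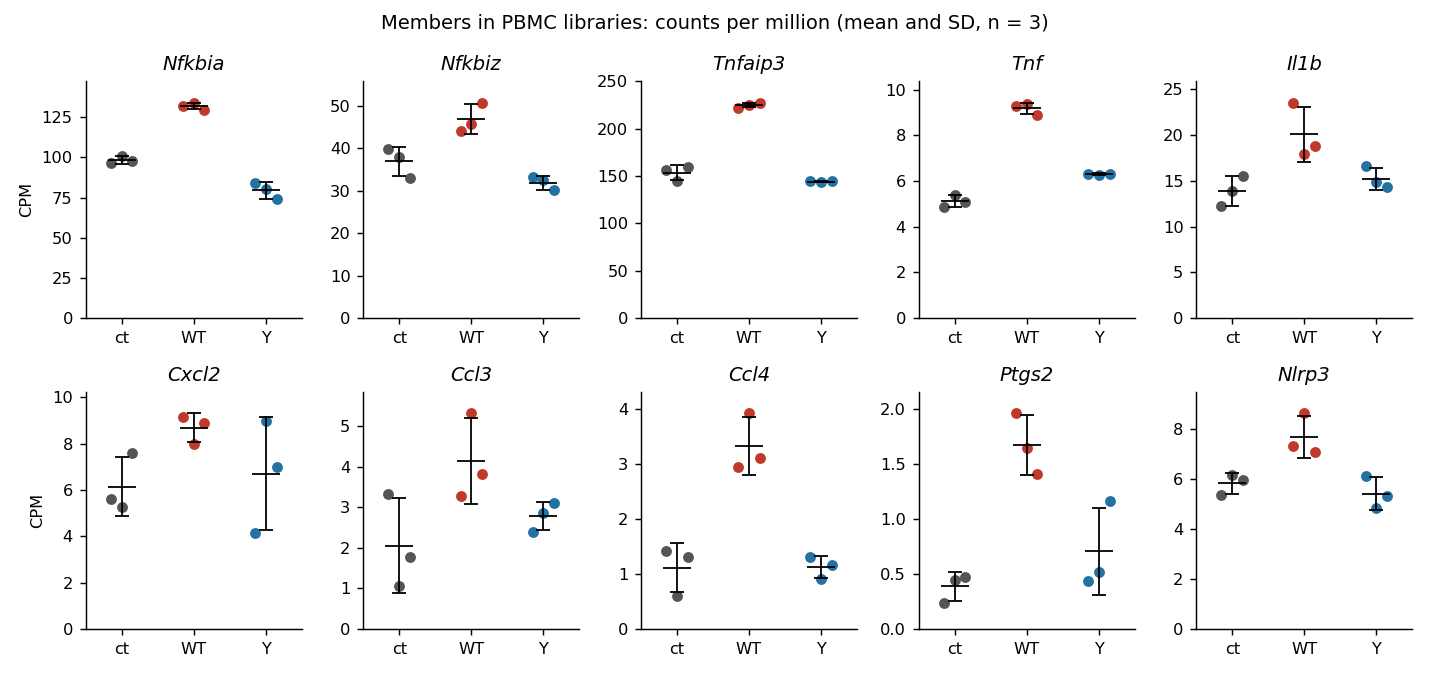
Level of each member in the 9 blood libraries, in CPM on TMM-scaled library sizes, with a panel per gene, a point per library, and lines for the mean and SD of the 3 libraries of each treatment. Nfkbia, Tnfaip3 and Tnf have WT libraries well above both other treatments, and Ccl3 and Cxcl2 have treatments that overlap.

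Among the cytokines, Tnf (chr17:35199381-35202007, minus strand), which encodes tumor necrosis factor, was at 9.27, 9.37 and 8.91 CPM in WT, against 4.88, 5.39 and 5.10 in ct and 6.33, 6.25 and 6.32 in Y. The 3 groups did not overlap, and here Y lay between ct and WT. Tnf was 1.80-fold higher in WT than in ct (log2 fold change 0.85, SE 0.13, adjusted p = 0.00191). The difference of Y from WT did not pass the test (log2 fold change -0.54, SE 0.13, adjusted p = 0.0629). Il1b, the gene of the pyrogenic cytokine interleukin-1 beta (chr2:129364570-129371139, minus strand), was at 23.6, 18.0 and 18.8 CPM in WT, against 12.2, 13.9 and 15.5 in ct and 16.6, 14.8 and 14.3 in Y. All WT libraries lay above the others, with the first WT library highest, and Y overlapped ct. The rise of Il1b in WT over ct was 1.45-fold (log2 fold change 0.54, SE 0.12, adjusted p = 0.0278). That call was lost without the first WT library (log2 fold change 0.41, adjusted p = 0.136), without the first ct library (0.45, adjusted p = 0.165) or without the second (0.54, adjusted p = 0.0868), with only the WT and ct libraries in the fit (0.54, adjusted p = 0.0545), and with DESeq2 (0.54, adjusted p = 0.123). Exons of Il1b overlap those of the antisense gene Il1bos, which was at 0 to 0.476 CPM, and whether the counting used strand is not given in the sources used here.

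The chemokine genes rested on few reads in blood. Ccl4 encodes MIP-1 beta and lies beside Ccl3, the gene of MIP-1 alpha, on chromosome 11 (chr11:83662584-83664683, plus strand, and chr11:83647844-83649355, minus strand). Ccl4 was at 2.95, 3.93 and 3.11 CPM in WT, against 1.43, 0.599 and 1.30 in ct and 1.31, 0.911 and 1.16 in Y, from estimated counts of 4 to 31 per library, and it passed the filter on low counts only through the WT libraries. The lowest WT library was above the highest of the others, and ct and Y overlapped. Its differences are therefore given as a description, 1.52 on the log2 scale between WT and ct (SE 0.31) and -1.58 between Y and WT (SE 0.33).

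Ccl3 was at 3.27, 5.32 and 3.82 CPM in WT, against 3.33, 1.05 and 1.78 in ct and 2.40, 2.86 and 3.10 in Y. The first ct library reached the lowest WT library, so ct and WT overlapped, and no comparison of Ccl3 was called (WT against ct 0.96, SE 0.32, adjusted p = 0.181). Without that ct library the log2 fold change was 1.49 and passed the test (adjusted p = 0.0326), and it also passed in the fit without the filter on low counts (0.96, adjusted p = 0.0224). The fit without the filter called 484 genes in this comparison, beside 275 with it. Cxcl2, the neutrophil attractant MIP-2 (chr5:90903871-90905938, plus strand), was at 9.16, 7.98 and 8.91 CPM in WT, against 5.59, 5.24 and 7.59 in ct and 4.15, 8.98 and 6.97 in Y. WT lay above ct, but the Y libraries spread across both, and no test of Cxcl2 passed (WT against ct 0.49, SE 0.20, adjusted p = 0.339).

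Nlrp3, the sensor of the inflammasome that matures IL-1 beta (chr11:59541568-59566956, plus strand), was at 7.31, 8.61 and 7.07 CPM in WT, against 5.35, 6.14 and 5.93 in ct and 6.11, 4.82 and 5.29 in Y. The WT libraries were above all others, though no test passed (WT against ct 0.40, SE 0.15, adjusted p = 0.270, and Y against WT -0.53, SE 0.16, adjusted p = 0.163). Ptgs2 encodes the inducible cyclooxygenase COX-2 of prostaglandin synthesis (chr1:150100031-150108227, plus strand). Its estimated counts were only 18, 13 and 10 in WT, against 2, 3 and 4 in ct and 2, 4 and 9 in Y, so that every WT library was above the others. In a fit without the filter on low counts, Ptgs2 was 4.28-fold higher in WT than in ct (95% interval 2.10 to 8.70, adjusted p = 0.00575) and its difference between Y and WT did not pass (log2 fold change -1.19, adjusted p = 0.377). That fit called 484 genes in WT against ct, beside 275 with the filter. Its interval and p-values are not directly comparable with those of the other members.

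**Figure D2:**
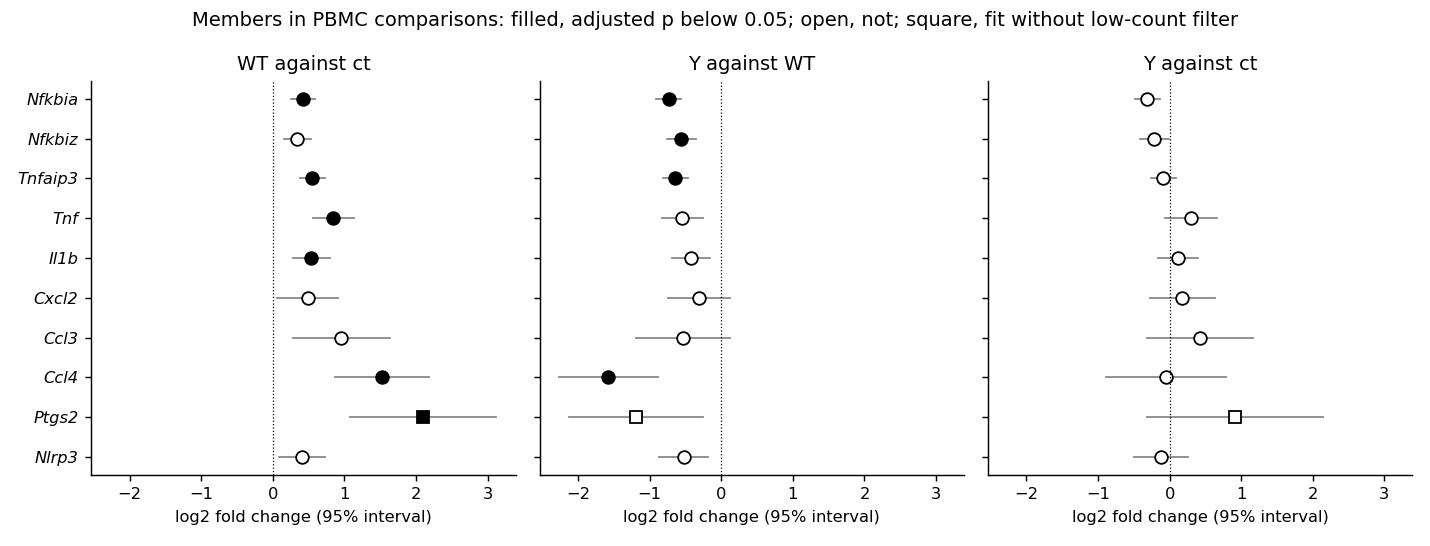
Log2 fold change of each member with its 95% interval in the 3 comparisons of the blood libraries; filled points passed the test at an adjusted p below 0.05, Ccl4 entered the test only through the WT libraries, and the square for Ptgs2 is from the fit without the filter on low counts. WT against ct lies above 0 for all 9 tested members and Y against WT below 0, while Y against ct scatters about 0.

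Counted over the 8 members that passed the filter whichever treatment was left out, 4 rose in WT against ct (Tnf, Tnfaip3, Il1b and Nfkbia) and 3 fell in Y against WT (Nfkbia, Tnfaip3 and Nfkbiz). Ccl4, which passed through the WT libraries alone, is left out of these counts. The others not called in Y against WT included Il1b (-0.42, adjusted p = 0.157), Ccl3 (-0.53, adjusted p = 0.559) and Cxcl2 (-0.31, adjusted p = 0.610), and Cxcl2 was the member whose Y and WT libraries overlapped. Among all tested genes, 0.765% were called higher and 1.60% lower in WT than in ct, and 0.438% higher and 0.817% lower in Y than in WT. WT lay above ct without overlap for 7 of these 8 members (7.62% of all genes) and Y below WT for 7 of the 8 (8.75% of all genes). The median log2 fold change of the 8 members was 0.51 in WT against ct and -0.54 in Y against WT, beside 0.0041 and 0.00098 over all genes. These comparisons share the WT libraries, so a high WT level enters both. DESeq2 called 3 of the 8 higher in WT than in ct (Tnf, Tnfaip3 and Nfkbia), beside 0.404% of all genes.

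Between Y and ct, edgeR called 0 of these 8 members, beside 0.705% of all genes called in either direction. Nfkbia and Nfkbiz, 2 of the 8, were at an unadjusted p under 0.05, beside 8.61% of all genes. DESeq2 called Nfkbia alone (log2 fold change -0.31, adjusted p = 0.0484), beside 0.438% of all genes called lower by it. Nfkbia was lower in every Y library than in every ct library (7.55% of all genes), with an edgeR log2 fold change of -0.31 (95% interval -0.49 to -0.13, adjusted p = 0.140). Tnf was higher in every Y library (5.70% of all genes), with a log2 fold change of 0.30 (95% interval -0.06 to 0.67, adjusted p = 0.699). Among the members tested in the fit with the filter, Tnfaip3 had the narrowest interval, -0.27 to 0.08 about a value of -0.09. Ccl4 had the widest in that fit, -0.89 to 0.79 about -0.05. The values of the others were -0.21 for Nfkbiz, -0.12 for Nlrp3, 0.12 for Il1b, 0.18 for Cxcl2 and 0.42 for Ccl3, and Ptgs2 was at 0.91 in the fit without the filter (95% interval -0.32 to 2.14). The neutrophil marker sum did not overlap between Y and ct, and 7 of its 9 tested genes were called higher in Y. Its part in the levels of the members was not tested.

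The rest of the pathway was followed with lists of 110 other genes, of which 90 were tested in blood. In WT against ct 10 rose and 2 fell (0.765% and 1.60% of all genes), in Y against WT 3 rose and 13 fell (0.438% and 0.817%), and in Y against ct 0 rose and 2 fell (0.705% in either direction). Among the subunits and kinases, only Rel, the gene of the NF-kB subunit c-Rel, was called of 11 tested, with a log2 fold change of 0.50 in WT against ct (adjusted p = 0.00284) and -0.48 in Y against WT (adjusted p = 0.00783). Of 18 other inhibitor and feedback genes, 4 rose and 2 fell in WT against ct, and 1 rose and 6 fell in Y against WT. They included the MAP kinase phosphatase genes Dusp1 (0.50 and -0.98) and Dusp2 (0.51 and -0.86), and Nfkbid, the gene of IkB NS (0.58 and -0.66), and in Y against WT also Zfp36l2, the gene of an mRNA-destabilizing protein (-0.65). The largest of the falls in WT was Otud7b, the gene of the deubiquitinase Cezanne (-0.64, adjusted p = 0.000434). Dusp1 and Otud7b were also the pair that fell in Y against ct (-0.47 and -0.37, adjusted p = 0.0145 and 0.0452).

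None of 18 receptors and adaptors and none of 8 inflammasome genes was called in either of those comparisons. Of 8 other chemokine genes and receptors, Ccrl2 (0.80, adjusted p = 0.0327) and the chemokine gene Ccl5 (0.52, adjusted p = 0.0256) rose in WT, and Ccl5 fell in Y against WT (-0.72, adjusted p = 0.00533). The neutrophil chemokine receptor gene Cxcr2 rose in Y against WT instead (0.75, adjusted p = 0.00416), as did Alox5ap of leukotriene synthesis (0.82, adjusted p = 0.000839), the only called gene of 8 in its list. Of 19 other inflammatory NF-kB targets, Gadd45b (0.95, adjusted p = 0.000215), Ier3 (0.70, adjusted p = 0.0287) and Irf1 (0.46, adjusted p = 0.00273) rose in WT, and 5 fell in Y against WT, among them Cd83 (-0.87), Ier3 (-0.79), Gadd45b (-0.70) and Cd69 (-0.60). Immediate early genes moved with these lists, with 8 of 9 tested higher in WT than in ct and 8 of 9 lower in Y than in WT.

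**Figure D3:**
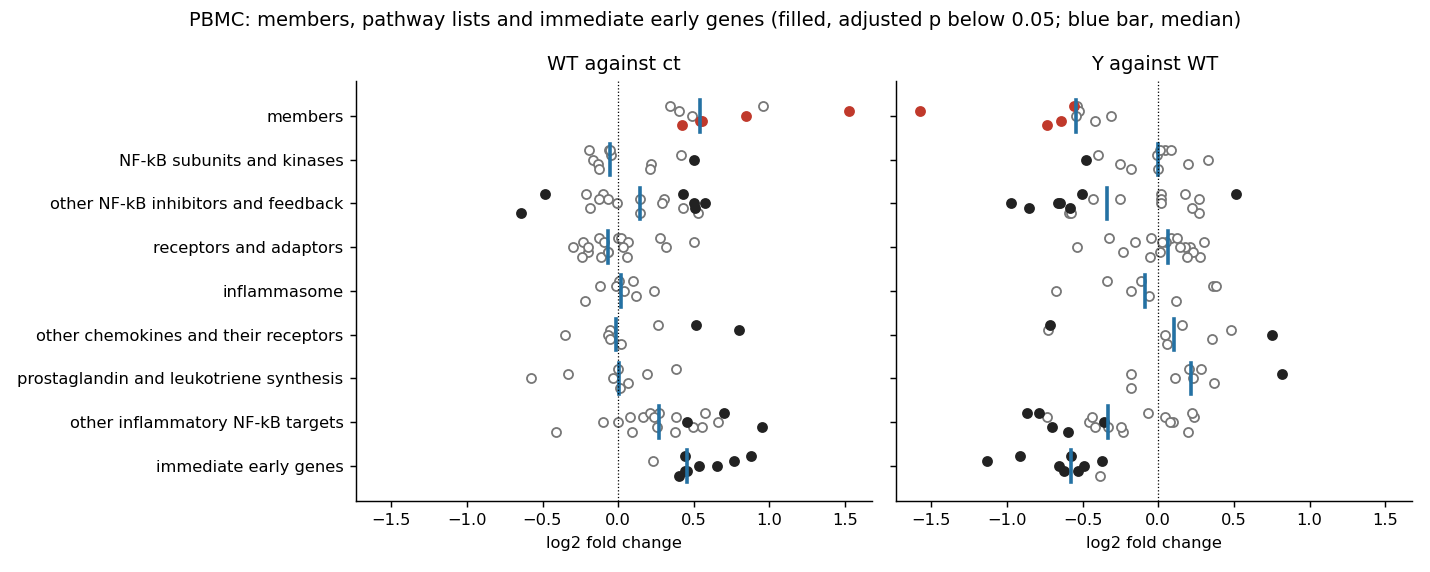
Log2 fold changes of the members and of the genes of each pathway list in the blood comparisons, with a point per tested gene, filled for called genes (red for members), and a blue bar at the median of each list. In WT against ct and Y against WT, the medians of the members, other inhibitors, other NF-kB targets and immediate early genes lie to the side of higher WT. Most other inhibitors and other targets were not called, and the other inhibitors had calls in both directions. The medians of the receptors and the inflammasome genes lie about 0.

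The genes with a pattern most like that of the members over the 9 blood libraries were Ier3, Gm44553, Ly6c2, Fosb and Rel. Likeness was Pearson's r between log2 CPM and the mean z-score of the 9 tested members, and r was 0.974, 0.969, 0.966, 0.964 and 0.962. Ccl4, among the 9, passed the filter only through the WT libraries, so the ranking rests in part on a member high in WT. The r values describe 9 libraries in 3 groups, share the same reads and depth, and were given no test. Ier3, an immediate early gene and NF-kB target, was at 7.20, 6.59 and 6.08 CPM in WT, against 3.92, 4.05 and 4.27 in ct and 3.93, 4.03 and 3.61 in Y, so that WT stood alone. Ly6c2, the marker of classical monocytes, was called higher in WT than in ct (0.64, adjusted p = 0.00703), the 1 of 10 tested monocyte markers that was. Another of them, F13a1, was called lower in WT (-0.36, adjusted p = 0.0399). In Y against WT, Ly6c2 (-0.77, adjusted p = 0.00403) and Csf1r (-0.46, adjusted p = 0.0132), 2 of the 10, were called lower and 0 higher.

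On the cell surface, levels were deposited as TPM (abundance scaled to transcript length and to the library total), and the monocyte libraries stood apart before any member was considered. Protein-coding transcripts took 16.9% to 18.1% of all TPM in the monocyte libraries and 0.645% to 2.96% in the other 12. The monocyte libraries were also sequenced on another platform, and their tables list 149488 transcripts against 102168 in the others, so platform, transcript set and cell type cannot be told apart. With only the transcripts listed in all 5 tables, every test of a member kept its direction and its side of the threshold. Each cell type was compared with the mean of the other 4 by limma on log2(TPM + 1), for the 7891 genes above 5 TPM in at least 3 libraries, and again on the protein-coding scale, on which TPM were rescaled so that protein-coding transcripts had the same total in every library. After rescaling, 1 was again added before log2. There it stands for a smaller TPM, which differs between libraries with their share of protein-coding transcripts. The part of this offset in differences between the scales, above all for genes at low levels, was not tested separately. Each cell type is part of the reference of the others, so these comparisons share libraries. The labelled cells carried their own markers: the sum of 10 monocyte markers was 2858 to 3454 TPM in monocytes and at most 34.7 elsewhere, that of 8 NK markers was 79.0 to 234 in NK cells and at most 31.0 elsewhere, that of 8 B cell markers was 235 to 367 in B cells, and that of 9 T cell markers was 37.1 to 108 in T cells. The HSPC markers, however, summed to 801 to 1246 TPM in monocytes and 124 to 270 in HSPC, and neutrophil markers to 1544 to 1586 in monocytes. Immediate early genes, which also respond to handling, summed to 1174 to 1373 TPM in monocytes, 69.3 to 189 in NK cells and 17.1 to 111 in the rest. The part of these values in the results was not tested.

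All 10 members were listed above 0 in every monocyte, NK cell and HSPC library, and 7 of them passed the filter, while Il1b, Cxcl2 and Ptgs2 failed it. Nfkbiz, Ccl3, Tnf and Nlrp3 failed it without the monocyte libraries, so their differences are given as values and not counted; Nfkbia, Tnfaip3 and Ccl4 passed whichever cell type was left out. Counts over these 3 are set beside the shares among the 1788 genes that passed in the same way. Summed over the members, TPM was 239.5 to 279 in monocytes, 38.6, 119 and 132 in NK cells, 23.4 to 26.7 in B cells, 8.24 to 26.1 in T cells and 11.1 to 24.1 in HSPC. On the protein-coding scale the order changed, and the sum was 2595, 4785 and 4476 in NK cells, 1416 to 1565 in monocytes, 1278 to 1722 in T cells, 812 to 1245 in B cells and 936 to 1249 in HSPC. NK cells were then highest, monocytes and T cells overlapped, and so did B cells and HSPC. The first NK library was the lowest of its group on both scales. The study calls a transcript a surface hit above 50 TPM. Among the members' transcripts, only that of Ccl3 on monocytes exceeded this level as a mean over a cell type, at 86.2 TPM. In single libraries, the Nfkbia transcript Nfkbia-202 also exceeded it in monocyte library 1, at 58.6 TPM. It was at 35.99 and 44.6 TPM in the other monocyte libraries. The share of all transcripts above it is not given here, so this is a description only.

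**Figure D4:**
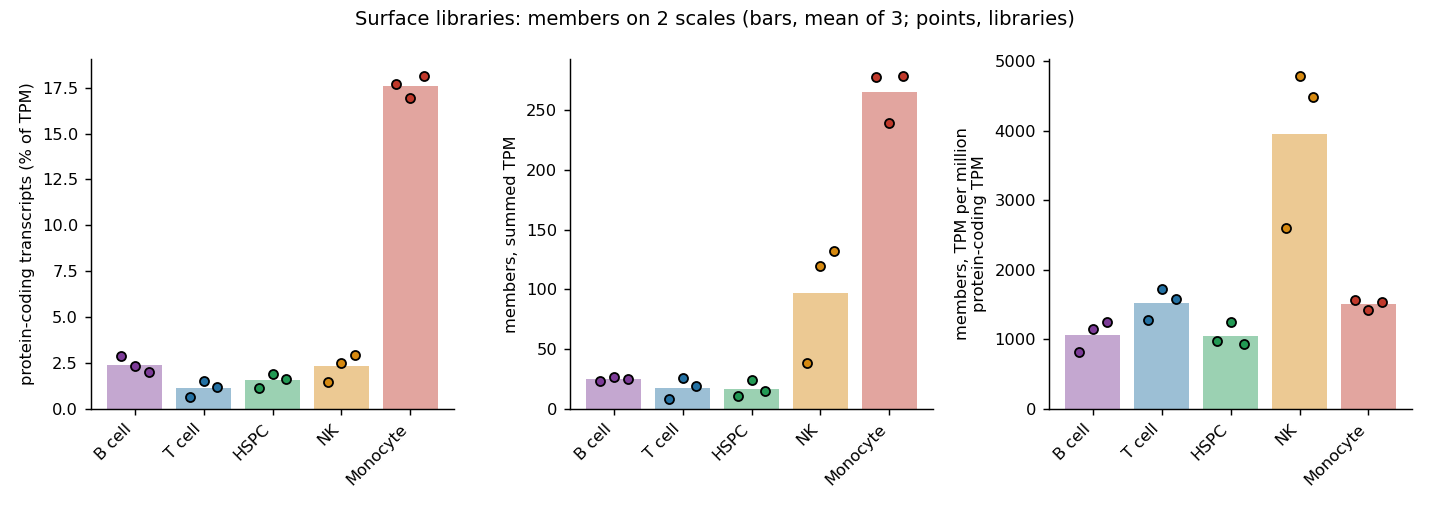
Share of protein-coding transcripts in each surface library (left, percent of TPM), summed TPM of the 10 members (middle) and the same sum on the protein-coding scale (right, rescaled TPM), with a point per library and a bar at the mean of 3. The monocyte libraries are highest in the first and second panels, and the NK libraries are highest in the last.

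In TPM, the chemokine genes Ccl3 and Ccl4 were high on monocytes and NK cells and near 0 on B cells. Ccl3 was at 77.2, 86.1 and 95.2 TPM in monocytes, 3.11, 19.6 and 20.1 in NK cells, 1.76, 3.41 and 2.74 in HSPC, and at most 0.0725 in any B or T cell library. Monocytes lay above all others, and NK cells met HSPC through the first NK library. Ccl4 was at 9.54, 31.0 and 35.6 TPM in NK cells, 21.2, 21.1 and 25.8 in monocytes, 2.37, 5.66 and 3.77 in HSPC, 0.237 to 0.526 in T cells and at most 0.0712 in B cells. NK cells and monocytes overlapped, and both lay above HSPC. On the protein-coding scale, Ccl4 was at 641, 1243 and 1203 in NK cells against 120, 125 and 142 in monocytes, without overlap, whereas Ccl3 overlapped (209, 787 and 680 against 436, 509 and 524). The mean order of monocytes and HSPC also turned for Ccl4 on that scale. Its log2 difference from the other cell types was 2.04 in HSPC and 0.90 in monocytes. Both genes have 1 transcript in these tables.

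The inhibitor genes were listed above 0 TPM in every surface library, some at low values. Nfkbia was at 91.5, 51.3 and 59.1 TPM in monocytes, 12.5, 33.1 and 39.7 in NK cells, 19.0, 22.3 and 21.9 in B cells, 3.69, 7.41 and 4.53 in HSPC, and 2.03, 6.48 and 6.00 in T cells. Monocytes were above the rest, NK cells and B cells overlapped, and so did HSPC and T cells. Tnfaip3 was at 10.6, 29.7 and 30.2 TPM in NK cells, 13.8, 14.0 and 17.9 in monocytes, 4.83, 16.8 and 10.8 in T cells, 2.51, 5.48 and 3.04 in HSPC, and 1.95, 1.36 and 1.09 in B cells. Only B cells were separate from every other cell type, below them. Nfkbiz was at 28.1, 20.8 and 26.3 TPM in monocytes and 1.47, 4.78 and 5.60 in NK cells, and it was at most 1.91 in the other libraries. Monocytes again stood alone in TPM, and the first NK library fell within the range of B and T cells.

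The remaining members were close to absent outside monocytes in TPM. Tnf was at 13.4, 11.2 and 14.4 TPM in monocytes, 0.541 to 1.13 in B cells and at most 0.602 elsewhere. Nlrp3 was at 22.7, 20.8 and 24.9 TPM in monocytes and at most 0.476 in any other library. Il1b was at 4.29, 4.81 and 2.71 TPM, Cxcl2 at 2.97, 5.01 and 7.23, and Ptgs2 at 2.22, 4.29 and 5.21 in monocytes. Il1b reached 0.631 in an NK library, and Cxcl2 was listed at 0 in all B cell libraries. Monocytes did not overlap another cell type in TPM for any of these 5 genes. On the protein-coding scale Il1b overlapped, at 5.43 to 42.4 in NK cells against 14.9 to 28.4 in monocytes. Tnf, Nlrp3, Cxcl2 and Ptgs2 stayed separate there, with monocytes highest.

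**Figure D5:**
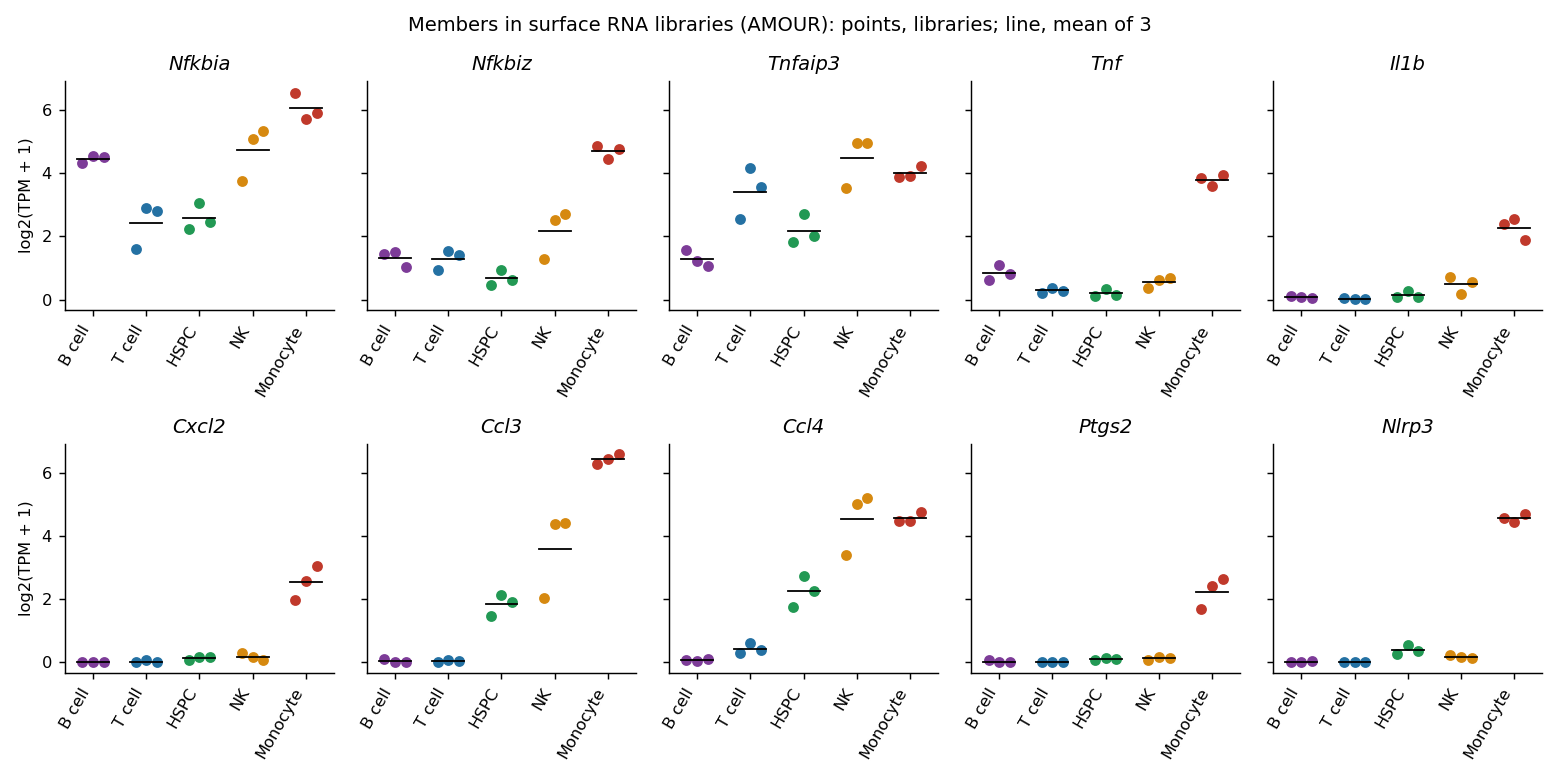
Level of each member on the surface of the 5 cell types, as log2(TPM + 1), with a panel per gene, a point per library and a line at the mean of each cell type. Monocytes are highest for 8 members, and NK cells reach or pass them for Ccl4 and Tnfaip3.

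In the test on TPM, 3 of the 3 counted members, Tnfaip3 (1.17), Nfkbia (2.50) and Ccl4 (2.74), were higher in monocytes on the log2(TPM + 1) scale, but 77.3% of the 1788 genes were too (92.1% of all 7891), and 8.45% were lower. The median difference of the 1788 genes was itself 2.40. On the protein-coding scale, Ccl4 was again higher in monocytes (0.90), 1 of 3 against 18.7% of genes, while Tnfaip3 (-1.93, adjusted p = 9.31e-07) and Nfkbia (-0.70, adjusted p = 0.0125) turned lower, 2 of 3 against 54.0% of genes. With quantile normalization, Ccl4 lost this call and was at -0.24 in monocytes (limma, adjusted p = 0.297). The 4 members that passed the filter through monocytes had differences there of 5.06 for Ccl3, 4.42 for Nlrp3, 3.32 for Tnf and 3.32 for Nfkbiz in TPM, and of 4.35, 4.89, 1.90 and 0.75 on the protein-coding scale. In a fit without the filter, Cxcl2, Ptgs2 and Il1b were at 2.45, 2.18 and 2.09 in monocytes.

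NK cells had 3 of the 3 counted members higher in TPM, Ccl4 (2.70, SE 0.29, adjusted p = 1.13e-06), Tnfaip3 (1.76, SE 0.33, adjusted p = 0.000420) and Nfkbia (0.85, SE 0.34, adjusted p = 0.0492), where 16.1% of the 1788 genes were called higher and 13.4% lower. Nfkbia lost its call in 10 of the 15 fits that left out a library, with the smallest values without NK library 2 (0.67, adjusted p = 0.185) or 3 (0.54, adjusted p = 0.224). It also lost the call with a pseudocount of 0.1 (adjusted p = 0.109) or 10 (adjusted p = 0.0611) and without the filter on low values (adjusted p = 0.134). On the scale of protein-coding TPM, the same 3 were higher in NK cells (4.57, 2.39 and 1.33), where 27.5% of genes were higher and 6.10% lower. Of the members not counted, Ccl3 was at 1.51 in TPM (0.28 with a pseudocount of 10) and 4.33 on the protein-coding scale, and Nfkbiz at 0.19 and 0.89. Nlrp3 and Tnf were at -1.08 and -0.73 in TPM and at -0.50 and -0.33 on the protein-coding scale (adjusted p = 0.416 and 0.369). Without any 1 monocyte library neither Nlrp3 nor Tnf passed the filter, and neither was tested. In the fit without the filter, Cxcl2, Ptgs2 and Il1b were at -0.50, -0.47 and -0.16 in NK cells.

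B cells had Ccl4 (-2.88) and Tnfaip3 (-2.23) lower in TPM, 2 of 3 against 29.8% of genes, and 0 of 3 higher against 24.3%, with Nfkbia at 0.51 (adjusted p = 0.202). Nfkbia was higher in B cells on the protein-coding scale (0.86, adjusted p = 0.00482), 1 of 3 against 35.7% of genes, and the other two stayed lower against 26.2% of genes. The members not counted were in B cells at -2.95 for Ccl3, -1.26 for Nlrp3, -0.88 for Nfkbiz and -0.37 for Tnf in TPM. Without the filter, Cxcl2, Il1b and Ptgs2 were at -0.72, -0.64 and -0.59 there. On the protein-coding scale Ccl3, Nlrp3, Nfkbiz and Tnf were at -6.06, -2.83, -0.70 and 0.47 in B cells, so Tnf turned direction.

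T cells had Ccl4 (-2.42) and Nfkbia (-2.02) lower in TPM, 2 of 3 against 59.3% of genes, and 0 of 3 higher against 21.6%. Tnfaip3 was at 0.43 in T cells (adjusted p = 0.217) and passed as higher without T cell library 1 (0.87, adjusted p = 0.0235). Tnfaip3 was higher in T cells on the protein-coding scale (2.30, adjusted p = 3.84e-07), 1 of 3 against 50.7% of genes, and 2 of 3 were lower against 22.4%. Ccl3 was at -2.93, Nlrp3 at -1.28, Tnf at -1.05 and Nfkbiz at -0.93 in TPM, and without the filter Il1b, Cxcl2 and Ptgs2 were at -0.72, -0.69 and -0.62. On the protein-coding scale Ccl3, Nlrp3, Tnf and Nfkbiz were at -5.04, -3.10, -0.30 and 0.66 in T cells, so Nfkbiz turned direction.

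HSPC had Nfkbia (-1.83) and Tnfaip3 (-1.12) lower in TPM, 2 of 3 against 74.4% of genes, and 0 of 3 higher against 3.69%, with Ccl4 at -0.15 (adjusted p = 0.622). Ccl4 turned higher in HSPC on the protein-coding scale (2.04), 1 of 3 against 21.9% of genes, and Nfkbia was lower, 1 of 3 against 41.3%. In HSPC, Nfkbiz was at -1.70, Tnf at -1.17, Nlrp3 at -0.80 and Ccl3 at -0.69 in TPM, and Ccl3 and Nlrp3 were at 2.42 and 1.54 on the protein-coding scale. Without the filter Il1b, Cxcl2 and Ptgs2 were at -0.58, -0.54 and -0.50.

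The surface tables also give transcripts, 30 for the members. Nfkbia-202, annotated as a retained intron transcript, held 54.5% to 85.5% of Nfkbia TPM and led in 15 of 15 libraries, from 54.5% to 68.3% in T cells to 78.3% to 85.5% in B cells. In the GENCODE M21 annotation 669 of its 701 bases (95.4%) lie in exons of the protein-coding Nfkbia transcript, so that reads from the shared bases cannot tell them apart. With protein-coding transcripts only, Nfkbia in B cells turned from 0.51 to -0.32 (adjusted p = 0.236). The retained intron transcripts of Tnfaip3 held 40.6% to 46.2% of its TPM in T cells, 37.0% to 42.8% in NK cells, 33.2% to 34.0% in HSPC, 22.9% to 33.0% in monocytes and 9.46% to 22.5% in B cells. T cells and B cells did not overlap. Of these transcripts, Tnfaip3-205 shares 4369 of its 6199 bases (70.5%) with exons of protein-coding Tnfaip3 transcripts and Tnfaip3-206 254 of 764 (33.2%), so the same limit applies. Nfkbiz-204 held 72.9% to 98.8% of Nfkbiz TPM and led in 15 of 15 libraries, and 3604 of its 3627 bases (99.4%) lie in exons of other protein-coding Nfkbiz transcripts.

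Of the 110 other pathway genes, 72 were tested on the surface, but 55 of these failed the filter without the monocyte libraries. Only the 17 that passed whichever cell type was left out are counted here, beside the same shares of the 1788 genes as above, and the 4 with the largest absolute difference in TPM are named for each cell type. In monocytes 14 were higher and 0 lower in TPM (77.3% and 8.45% of genes), and 4 were higher and 10 lower on the protein-coding scale (18.7% and 54.0%). The phosphatase gene Dusp1 (5.49 in TPM and 2.40 on the protein-coding scale), Zfp36, the gene of the mRNA-destabilizing tristetraprolin (4.08 and 0.88), the TNF receptor gene Tnfrsf1b (3.62 and 0.82) and the atypical IkB gene Bcl3 (3.59 and 1.41) were higher on both scales.

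In NK cells 5 of the 17 were higher and 1 lower in TPM (16.1% and 13.4% of genes), and 12 were higher and 0 lower after rescaling (27.5% and 6.10%). They were led by Ccl5, a chemokine gene of cytotoxic lymphocytes (6.10 and 7.61), followed by Dusp2 (1.33 and 1.91), Zfp36l1 (1.00 and 1.52) and Tnfrsf1b (0.75 in TPM). In B cells 6 were higher and 3 lower in TPM (24.3% and 29.8% of genes), and 10 and 3 after rescaling (35.7% and 26.2%). Zfp36l1 was higher (2.24 and 2.68), and Ccl5 (-3.07 and -3.79), Dusp1 (-2.19 and -2.18) and Tnfrsf1b (-1.37 and -1.29) were lower.

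In T cells 1 of the 17 was higher and 12 lower in TPM (21.6% and 59.3% of genes), and 7 and 3 on the protein-coding scale (50.7% and 22.4%). Zfp36 (-2.73 and -1.25), Bcl3 (-1.84 and -1.04) and the subunit gene Nfkb1 (-1.68 and -0.43) were lower on both scales, and Dusp1 only in TPM (adjusted p = 7.90e-05, against 0.204 on the protein-coding scale, where it was at -0.44). In HSPC 0 were higher and 16 lower in TPM (3.69% and 74.4% of genes), and 1 was higher and 13 lower on the protein-coding scale (21.9% and 41.3%). The leading falls were in Ccl5 (-3.42 and -4.41), Zfp36l1 (-2.53 and -1.96), Zfp36 (-2.42 and -1.52) and Birc3, the gene of an inhibitor of apoptosis (-2.41 and -2.56).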

How the data were processed

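Blood RNA was deposited as RSEM tables, in which the authors' expected counts per gene and TPM were made with Trim Galore, STAR, featureCounts and RSEM, named per the labels with builds hg38 and mm10. Surface RNA was deposited as TPM per transcript; per the labels and the methods the authors removed reads with the same barcode and quantified with kallisto. The transcript set behind the surface tables is not given in the sources used here, and it differed between the monocyte table and the others.

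Expected counts were rounded and tested with edgeR 4.0.16 (R 4.3.3), TMM scaling, filterByExpr and the quasi-likelihood test in 1 fit over 9 libraries. Surface TPM was summed by gene name and tested with limma 3.58.1 with an intensity trend on log2(TPM + 1), for genes above 5 TPM in 3 or more of 15 libraries. A fold change on that scale understates the change of low genes, and the depth of the surface libraries is unknown. Calls used a Benjamini-Hochberg adjusted p below 0.05 over all genes tested. Both tests were tested on simulated data first. Alternatives were DESeq2 1.42.0, no filter, the replicate block, other pseudocounts, scaling to protein-coding TPM, quantile normalization, protein-coding transcripts only, transcripts listed in all tables, and leaving out libraries. Positions are from GENCODE M21 (GRCm38) and promoters from RefSeq.

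The members, the pathway lists and the marker lists were chosen with earlier results of these data known. All 10 members are named in every comparison. Of a pathway list, up to 4 called genes with the largest absolute fold change are named in blood. On the surface this rule was narrowed after the values were seen, to 4 genes per cell type over all lists, among those that passed the filter whichever cell type was left out. The 5 genes most like the members are those with the highest Pearson r. No value rests on columns of the authors' comparisons.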

Additional observations from a re-analysis of the deposited data

How the results depend on the processing

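Of the alternatives for the members' tests in blood, 375 kept direction and side of the threshold, 13 lost the call, 3 gained it and 4 turned direction. On the surface the counts were 743, 23, 17 and 32. The causes were not tested, except that leaving out 1 monocyte library left 2642 to 2648 genes tested, because genes above 5 TPM in too few of the other libraries then failed the filter. The low counts of Ccl3, Ccl4 and Ptgs2 limit what blood can show (depth is unknown for the surface).

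Counts of members cover the 8 in blood and the 3 on the surface that passed the filter whichever treatment or cell type was left out. In blood, DESeq2 called 3 of the 8 higher in WT than in ct (0.404% of all genes) and 1 lower in Y than in ct (0.438%). Leaving out a library gave 3 to 4 higher in WT than in ct and 2 to 3 lower in Y than in WT. Between Y and ct, Ccl4 ranged from -0.31 to 0.16 without a library and Cxcl2 from -0.085 to 0.38. Ccl4 turned positive without ct library 1, ct library 3 (0.073) or Y library 2 (0.090). Genes called higher in WT than in ct numbered 89, with 47 by DESeq2, 238 with no filter and 56 at the lowest without a library, and those lower 186, with 111 at the lowest. For Y against ct, 31 higher and 51 lower became 133 and 124 with no filter and 17 at the lowest without a library, with 116 higher at most. For Y against WT, 51 higher and 95 lower became 132 and 234 with no filter and 26 each at the lowest.

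The replicate numbers did not pair the blood libraries, where same-numbered libraries correlated at -0.061 to 0.059. On the surface they ran from -0.28 to 0.53, but T and NK libraries of the same number correlated at 0.26, 0.41 and 0.53, against -0.45 to 0.16 for different numbers. The replicate block called 4 members higher in WT than in ct, 0 between Y and ct, and 3 lower in Y than in WT, as without it. The genes called were then 75 higher and 159 lower, 33 and 41, and 46 and 82 in the 3 comparisons. No count of called members on the surface changed with it.

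On the surface, members called higher in B cells (0) became 1 on the protein-coding scale, with quantile normalization, without the monocyte libraries, and without them on the protein-coding scale, the last chosen after seeing the data. Those higher in T cells (0) became 1 on the protein-coding scale, with and without the monocyte libraries, 1 with quantile normalization and 0 to 1 without a library. In HSPC, those higher (0) became 1 under those same 3 alternatives, and those lower (2) became 1 on the protein-coding scale and 1 with quantile normalization. In monocytes, those higher (3) became 1 on the protein-coding scale and 0 with quantile normalization, and those lower (0) became 2 and 1. In NK cells, those higher (3) were 2 to 3 without a library.

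Log2 differences turned direction on the protein-coding scale to 0.47 for Tnf in B cells, 0.66 for Nfkbiz in T cells, 2.42, 2.04 and 1.54 for Ccl3, Ccl4 and Nlrp3 in HSPC, and -0.70 and -1.93 for Nfkbia and Tnfaip3 in monocytes. With quantile normalization, they turned to 0.23 for Tnf in B cells, 0.41 for Nfkbiz in T cells, 0.095, 0.53, 1.01 and 0.060 for Tnfaip3, Ccl3, Ccl4 and Nlrp3 in HSPC, and -0.39, -1.63 and -0.24 for Nfkbia, Tnfaip3 and Ccl4 in monocytes. Without the monocyte libraries on the protein-coding scale, they turned to 1.00 for Tnf in B cells, 0.91 and 0.19 for Nfkbiz and Tnf in T cells, 3.74, 2.41 and 2.94 for Ccl3, Ccl4 and Nlrp3 in HSPC, and 0.15 and 0.77 for Tnf and Nlrp3 in NK cells. In TPM without the monocyte libraries, Ccl4 in HSPC became 0.57. In TPM, a pseudocount of 0.1 gave 0.013 for Tnf in B cells and 0.44 and 0.67 for Ccl3 and Ccl4 in HSPC. These differences were among those that turned on the protein-coding scale, where the added pseudocount stands for a smaller TPM. A pseudocount of 10 gave -0.11 for Nfkbiz in NK cells. Protein-coding transcripts alone gave -0.32 for Nfkbia in B cells. Leaving out an NK library gave -0.083 (without NK library 3) to 0.63 for Nfkbiz in NK cells, and without the first HSPC library Ccl4 in HSPC became 0.098.

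Of genes called, 96.3% were higher in monocytes in TPM, 66.1% on the protein-coding scale and 48.4% with quantile normalization, and 11.6%, 67.2% and 38.7% in NK cells. In the same order, genes higher numbered 7271, 3410 and 2579 (monocytes), 428, 1250 and 914 (NK), 727, 1643 and 1977 (B), 470, 1857 and 1844 (T) and 102, 1826 and 2297 (HSPC), and genes lower 281, 1752 and 2754, 3274, 610 and 1445, 4253, 2845 and 2266, 6852, 2750 and 2414, and 6695, 2412 and 2083. Without the monocyte libraries 1990 genes were tested, and B cells had 811 higher with 370 lower (68.7% of calls higher), T cells 491 with 789, HSPC 176 with 1084 and NK cells 586 with 59 (90.9%).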
